A study of Homo sapiens with 6 samples.

Results

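Long noncoding RNAs and the host genes of small nucleolar RNAs (snoRNAs) were followed from attached culture to sphere culture in MDA231-LM2 breast cancer cells. The 10 genes were MALAT1, NEAT1, GAS5, SNHG1, SNHG8, SNHG12, TUG1, H19, PVT1 and MEG3, and their members were all probe sets that the platform annotation gives to 1 of these symbols and to no other. By this rule 5 of the 10 genes were measured (MALAT1, TUG1, MEG3, GAS5 and PVT1), with 30 of the 54613 tested probe sets, in a series with 19775 measured genes. The other 5 genes (NEAT1, SNHG1, SNHG8, SNHG12 and H19) stood only on probe sets that the annotation shares with a snoRNA or microRNA lying inside them. These shared probe sets, 23 in all over 7 of the genes, were outside the rule and are described as joint annotations, whose signal cannot be assigned to the long RNA alone.

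Gene expression was measured on 6 Affymetrix Human Genome U133 Plus 2.0 arrays, 3 biological replicates per culture form according to the labels. MDA231-LM2 is a lung-seeking subline of the human breast cancer line MDA-MB-231, so all cultures came from 1 line, and no drug or altered gene was part of either group. Monolayer cells grew attached with 10% fetal bovine serum and were taken 48 h after fresh medium had been given. Oncospheres, which are unattached cell clusters kept as a culture rich in stem-like cells, grew for 4 days in low-attachment plates in serum-free HuMEC medium with insulin at 5 μg/ml, EGF at 20 ng/ml, bFGF at 10 ng/ml and 2% B27. Attachment, serum, growth factors and time in culture differed together between the groups and cannot be told apart.

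A long noncoding RNA is a long transcript that is not known to work by being translated. MALAT1 and NEAT1 are kept in the nucleus, MALAT1 in nuclear speckles beside splicing factors and NEAT1 as the scaffold of paraspeckles, bodies that hold RNA-binding proteins and do not form without it. GAS5, SNHG1, SNHG8 and SNHG12 are snoRNA host genes: the snoRNAs, which guide chemical modification of ribosomal RNA, are cut from the introns, and the spliced exons are left as a second product that is often degraded by nonsense-mediated decay. H19 and MEG3 are imprinted genes, expressed from the maternal allele, PVT1 is the neighbour of the oncogene MYC, and TUG1 is a widely expressed RNA of nucleus and cytoplasm. RefSeq places 11 snoRNA genes inside GAS5, 9 inside SNHG1, 4 inside SNHG12 and 1 inside SNHG8. The array labelling starts from poly(A) tails, so that processed snoRNAs without such a tail are not its usual substrate.

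The arrays of 1 group correlated at Pearson's r of 0.993 to 0.996 across probe sets and those of different groups at 0.966 to 0.973. Values are RMA intensities on a linear scale, with a median of 112.6 to 114.1 on each array and a minimum of 48.0 to 51.0, and a probe set below the median of its arrays may not measure its gene at all. Of 10 genes known to be expressed by MDA-MB-231 all lay above the median, and of 7 measured genes that this line is known to lack 5 lay below it and all 7 were not called. Markers of leukocytes, endothelium and fibroblasts summed to 1189 to 1241 in monolayer and 1580 to 1842 in oncospheres over 11 genes, of which 3 were called higher and 2 lower. Of the 11 markers 6 lay below the median, among them PTPRC, CDH5, VWF and PDGFRA, which were named after their values were seen. PECAM1 (log2 difference 1.58), LUM (1.44, but -0.06 on its only probe set that is not of the _x_at or _s_at kind) and CD14 (0.52) were higher. KDR (-0.50), below the median, was lower. The part of such cells in the results below was not tested. As a sign of RNA integrity, the log2 ratio of the 3′ to the 5′ control probe sets was -0.09 to 0.02 in monolayer and -0.03 to 0.04 in oncospheres for ACTB, and -0.12 to -0.02 against -0.07 to -0.05 for GAPDH.

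Oncospheres were compared with monolayer over all probe sets with limma, and a probe set was called at a Benjamini-Hochberg adjusted p below 0.05. Of the 30 member probe sets 13 were called higher in oncospheres and 0 lower, while 17 were not called. Over all probe sets 14.5% were called higher, 14.2% lower and 28.7% in either direction. At an unadjusted p below 0.05, limma counted 15 higher and 1 lower. For 16 of the 30 the 2 groups were apart without overlap, as for 41.5% of all probe sets. The 13 belonged to 2 genes, since 12 were of MALAT1 and 1 of TUG1, and by the probe set with the highest mean these were the genes called higher among the 5, with 0 lower. Over all genes, 17.3% were called higher and 17.5% lower by that measure. Of the 23 joint probe sets 7 were called higher, all 7 with the annotation NEAT1 and MIR612, and 4 were called lower, with annotations of SNHG1, SNHG8 and PVT1. Because bulk RNA was measured, fewer cells with an RNA and less of it per cell cannot be told apart.

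**Figure D1:**
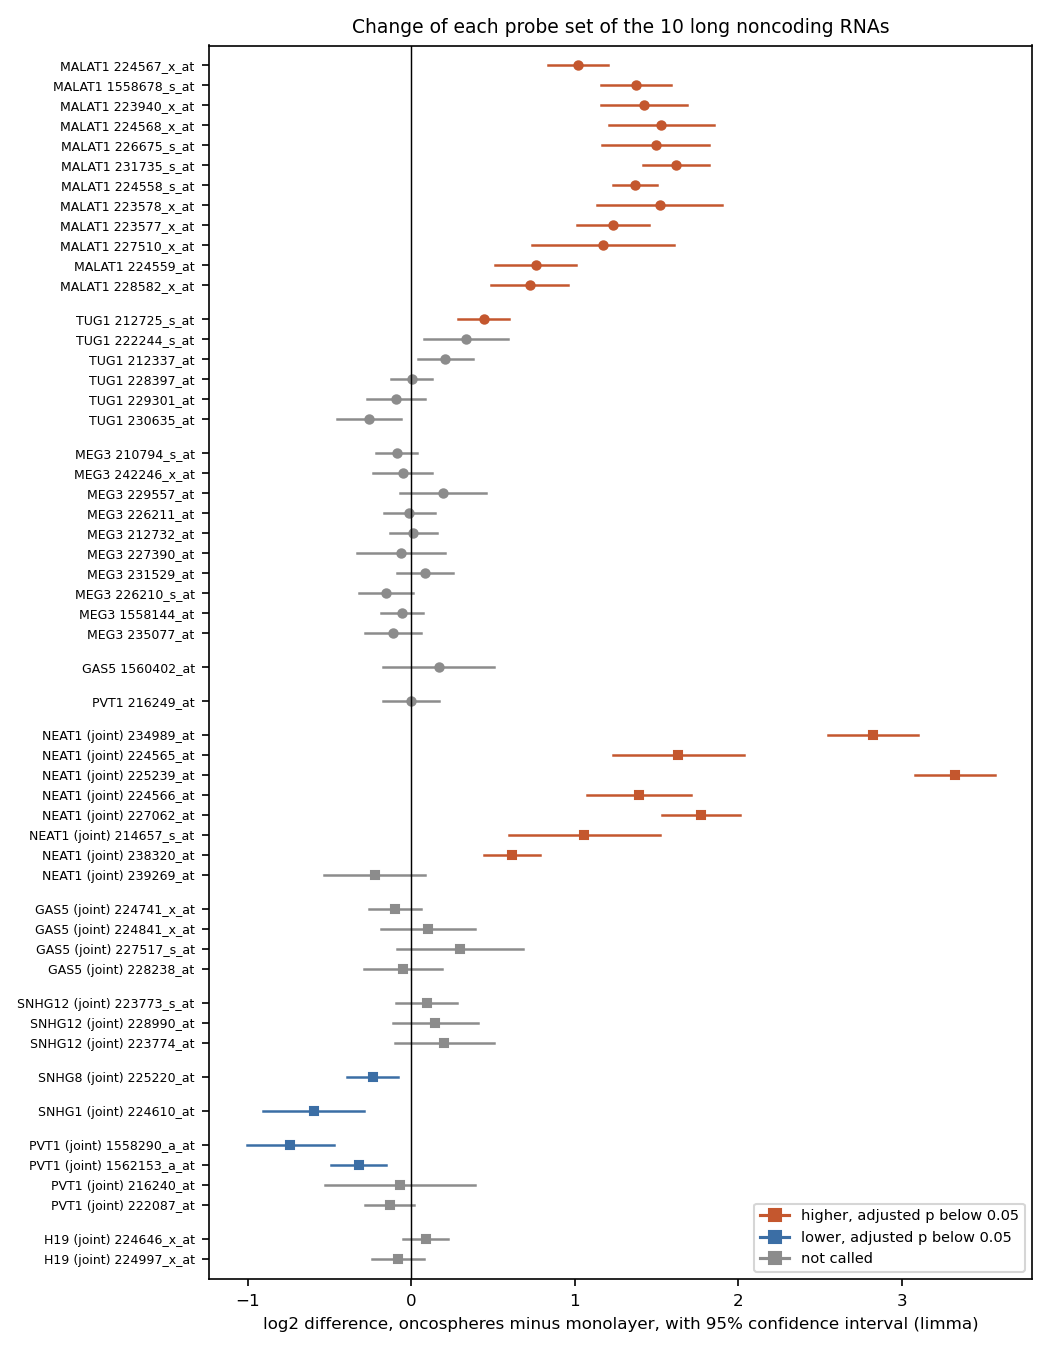
Change of each of the 30 single-symbol probe sets (circles) and the 23 joint probe sets (squares), as the log2 difference of oncospheres minus monolayer on the x axis with its 95% confidence interval from limma, 1 line per probe set, coloured by call. All 12 MALAT1 intervals lie above 0, the NEAT1 and MIR612 probe sets reach 3.32, and all 10 MEG3 intervals include 0.

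MALAT1 was higher in oncospheres on all 12 of its probe sets. It is the RNA of nuclear speckles and was first described by its link to metastasis of lung cancer. Its probe set with the highest mean, 224567_x_at, read 4603, 4895 and 4160 in the monolayer cultures and 8710, 9875 and 9098 in the oncospheres. Every oncosphere culture was above every monolayer culture, by a wide margin. The means were 4553 ± 370 and 9228 ± 594 (SD, n = 3 each), a 2.03-fold difference (log2 difference 1.02, SE 0.08, adjusted p = 5.275e-05, limma). RefSeq gives MALAT1 more than 1 start site. Upstream of the start at position 65499045 of chromosome 11 the window holds a TATAAA motif, whose first base lies 30 bases before the start. It is printed here because MALAT1 carried most of the calls, as the 250 bases before and 50 bases from the start (RefSeq, GRCh38.p14, chr11:65498795-65499094, plus strand), with the motif in capitals.
MALAT1: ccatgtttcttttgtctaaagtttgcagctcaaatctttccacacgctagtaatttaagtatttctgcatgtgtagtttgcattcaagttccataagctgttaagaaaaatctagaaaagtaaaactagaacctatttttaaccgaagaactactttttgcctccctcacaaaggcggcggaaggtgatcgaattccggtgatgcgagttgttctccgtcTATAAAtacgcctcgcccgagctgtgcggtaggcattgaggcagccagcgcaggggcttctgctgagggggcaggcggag

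TATAAA occurs on either strand in 11.5% of 35116 RefSeq promoter windows of this length. The window of the upstream MALAT1 start held no match to it. The other motifs searched on both strands were CACGTG, its inner part ACGTG, and also TGANTCA, and neither MALAT1 window matched any of them. Windows were searched for 8 of the 10 genes, 11 windows in all, and TGANTCA (in 7.71% of all windows) matched 0 of these 11. NEAT1 and PVT1 were not searched. A match describes the letters and is neither a binding site nor a cause.

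The 12 MALAT1 probe sets differed in the size of the change. The log2 difference ran from 0.73 to 1.62 with a median of 1.37, and the adjusted p from 3.488e-06 to 0.002002. None of the 12 had overlapping groups, all 12 were at least 1.5-fold higher, against 5.27% of all probe sets, and 10 of the 12 at least 2-fold, against 1.88%. The largest change was on 231735_s_at, which read 481, 514 and 465 in monolayer and 1331, 1655 and 1511 in oncospheres (3.07-fold, log2 difference 1.62, adjusted p = 9.754e-06). The 3 oncosphere cultures lay well clear of the monolayer, with culture 2 highest. The tightest replicates were those of 224558_s_at, at 450, 490 and 483 against 1211, 1228 and 1227 (log2 difference 1.37, SE 0.06).

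Most of these probe sets are of kinds that can match more than 1 transcript, 7 being _x_at and 4 _s_at by name. The remaining one, 224559_at, read 185, 192 and 200 in monolayer and 313, 387 and 285 in oncospheres. It was 1.69-fold higher (log2 difference 0.76, SE 0.11, adjusted p = 0.001059), about as much as 228582_x_at (0.73), and these were the smallest changes of the 12. Both are also the dimmest of the gene's probe sets, and with the 5th percentile of each array subtracted their log2 differences were 1.03 and 1.06. Compared within each array, 7 of the other 11 probe sets changed by 0.35 to 0.60 more on the log2 scale than 224567_x_at (adjusted p between 0.0009726 and 0.02846), whereas 28.3% of such differences were called over all genes with several probe sets. After the same subtraction 3 of the 11 differences were called. The order of the probe sets along the transcript was not established here.

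**Figure D2:**
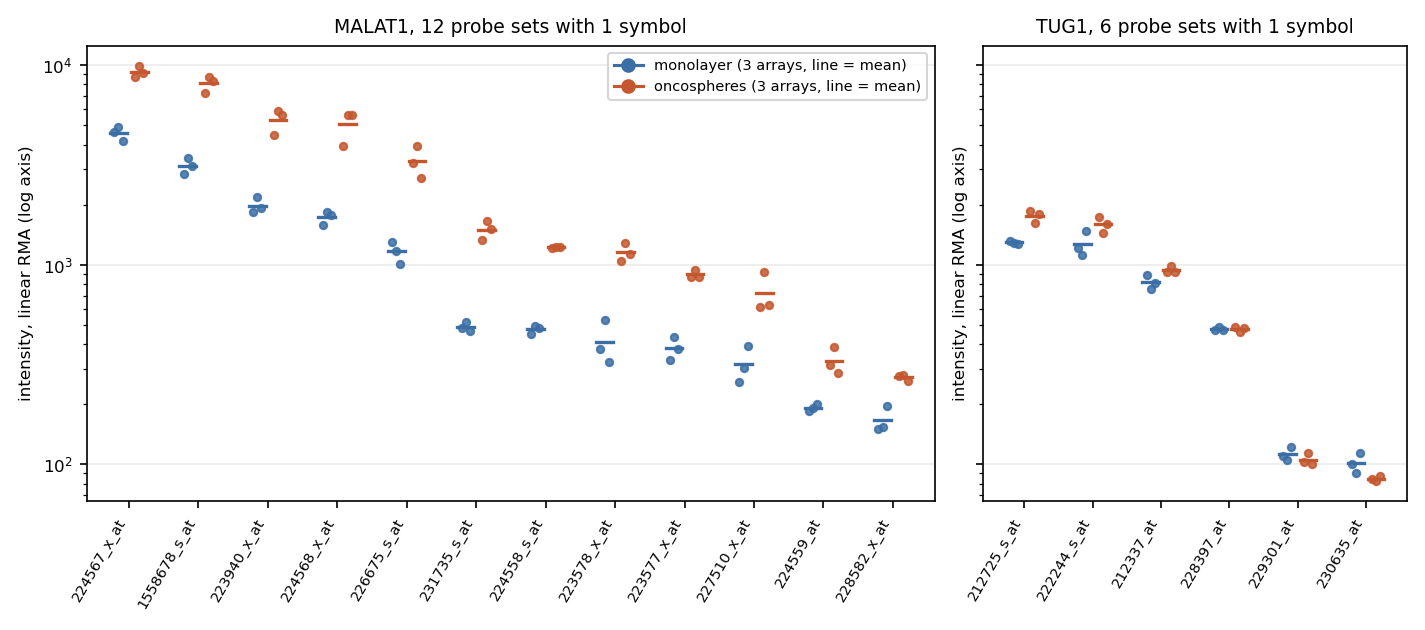
Linear RMA intensity on a log axis for each array, with 12 probe sets of MALAT1 (left) and 6 of TUG1 (right) ordered by mean; points are the 3 cultures of each group and lines the group means. The 2 colours are apart for all MALAT1 probe sets, while those of TUG1 run from 1.36-fold higher in oncospheres at the left to a log2 difference of -0.26 at the right.

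TUG1 gave different answers on different probe sets. It is named for its response to taurine in retinal cells of rodents, and RefSeq now lists the human gene as protein coding. The probe set with the highest mean, 212725_s_at, read 1318, 1289 and 1270 in monolayer and 1859, 1617 and 1804 in oncospheres. The groups were apart, and the oncospheres spread more than the monolayer. The difference was 1.36-fold (log2 difference 0.44, SE 0.07, adjusted p = 0.001544), and it was the only TUG1 probe set called. The next, 222244_s_at, overlapped between groups, at 1214, 1115 and 1468 against 1741, 1439 and 1593 (log2 difference 0.34, adjusted p = 0.05822). On 212337_at the values were 883, 754 and 808 against 916, 980 and 924 (log2 difference 0.21, adjusted p = 0.06644). For 228397_at the means were 475.1 and 475.5, and the 95% interval of the log2 difference was -0.12 to 0.13.

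The remaining 2 TUG1 probe sets lay below the median of the arrays. On 230635_at the values were 101, 90.7 and 114 in monolayer and 84.1, 82.8 and 87.2 in oncospheres, lower without overlap but not called (log2 difference -0.26, adjusted p = 0.05446). On 229301_at the log2 difference was -0.09 (adjusted p = 0.4521). Within arrays, 3 of the 5 further probe sets differed from 212725_s_at, by -0.44 for 228397_at, -0.54 for 229301_at and -0.70 for 230635_at on the log2 scale. The call on the gene thus rests on 1 probe set, although 222244_s_at was called higher in 5 of 16 alternatives, among them without monolayer replicate 3 or oncospheres replicate 2, and 212337_at in 2 of 17, one of them without monolayer replicate 1. The mean of all 6 gave a log2 difference of 0.11, and 212337_at, the first without the _x_at or _s_at suffix, gave 0.21, neither of them called. The TUG1 window holds a CACGTG motif that begins 77 bases before the start at position 30969265 of chromosome 22, the sole searched member window with one (7.26% of all windows hold it). It contains ACGTG on both strands, which occurs in 21.4% of windows. The window is shown for comparison with MALAT1 (RefSeq, GRCh38.p14, chr22:30969015-30969314, plus strand, motif in capitals).
TUG1: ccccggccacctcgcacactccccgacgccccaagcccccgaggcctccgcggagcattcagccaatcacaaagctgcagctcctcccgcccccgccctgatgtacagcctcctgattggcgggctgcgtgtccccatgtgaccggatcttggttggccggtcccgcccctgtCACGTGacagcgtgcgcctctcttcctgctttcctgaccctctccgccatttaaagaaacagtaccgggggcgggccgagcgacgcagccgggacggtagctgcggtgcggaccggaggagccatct

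MEG3 was near the floor of the arrays in both culture forms. This imprinted RNA is expressed in many normal tissues and is silenced in many tumours. Its 10 probe sets read between 70.7 and 132 over all arrays, and 9 of them lay below the array median. All 10 were not called (0 by limma at an unadjusted p below 0.05), with log2 differences of -0.15 to 0.19 and adjusted p values of 0.1646 to 0.931. The one above the median, 210794_s_at, read 124, 127 and 132 in monolayer and 118, 120 and 122 in oncospheres. These groups just failed to overlap, and the difference was not called (log2 difference -0.09, adjusted p = 0.2892). The 95% intervals of the 10 reached from -0.33 at the lowest to 0.46 at the highest. A TATAAA motif begins 18, 28 or 42 bases before the 3 annotated starts of MEG3, which lie close together.

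The single-symbol probe sets of GAS5 and PVT1 were not called. GAS5 takes its name from growth arrest, in which its spliced RNA accumulates. Its single-symbol probe set, 1560402_at, read 156, 172 and 111 in monolayer and 168, 158 and 159 in oncospheres. These overlapped, and the 95% interval of the log2 difference was -0.17 to 0.51 (estimate 0.17). PVT1 216249_at read 86.2, 82.7 and 95.2 against 82.5, 92.4 and 88.7, below the array median, with a log2 difference of 0.00 (95% interval -0.17 to 0.17).

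The joint probe sets of NEAT1 and MIR612 carried the largest changes of all 53. MIR612 is a microRNA gene that RefSeq places inside NEAT1. For 225239_at the values were 302, 328 and 322 in monolayer and 3758, 2814 and 3033 in oncospheres. The monolayer cultures were within a narrow range and the oncospheres were far above it, with culture 1 highest. This was a 10.02-fold difference, with a 95% interval of 8.47 to 11.8-fold (log2 difference 3.32, SE 0.11, adjusted p = 1.663e-06). On 234989_at the values were 554, 579 and 456 against 4336, 3441 and 3459, which made 7.07-fold (log2 difference 2.82, adjusted p = 3.488e-06).

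The probe set of this annotation with the highest mean log2 value, 224565_at, changed less. It read 930, 1217 and 878 in monolayer and 3985, 2841 and 2616 in oncospheres (3.10-fold, log2 difference 1.63, adjusted p = 0.0002457). Its oncosphere cultures spread more than those of 224566_at, which read 856, 1116 and 729 against 2401, 2349 and 2226 (log2 difference 1.39). The dimmer 227062_at (128, 127 and 138 against 526, 399 and 425) rose 3.41-fold. Smaller rises were seen on 214657_s_at (log2 difference 1.06) and 238320_at (0.62). Thus 7 of the 8 were higher without overlap, and 6 of them at least 2-fold. The exception was 239269_at, at 131, 146 and 148 against 108, 152 and 108, which was not called (log2 difference -0.23, adjusted p = 0.276). Without oncospheres replicate 2 it was called lower (-0.39, adjusted p = 0.00672).

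The size of the change differed between the probe sets of this annotation. Relative to 224565_at on the same array, 225239_at changed by 1.69 and 234989_at by 1.19 more on the log2 scale, while 238320_at changed by 1.02 less (difference -1.02) and 239269_at by 1.86 less (-1.86). These were 4 of 7 differences called, with adjusted p values of 6.188e-05 to 0.00543, and 28% were called over all annotations when those with several symbols were included. With the 5th percentile of each array subtracted, 4 differences were again called, but 238320_at (-0.44, adjusted p = 0.3216) was no longer among them and 227062_at (0.83, adjusted p = 0.04588) was, its own log2 difference having become 2.53 in place of 1.77. NEAT1 is transcribed as a short polyadenylated form and a longer form from the same start, and which form each probe set reads was not established here. A further probe set with this annotation, 220983_s_at, was set aside because its source transcript belongs to SPRY4 in RefSeq, and it was not called (log2 difference 0.26, adjusted p = 0.1444).

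**Figure D3:**
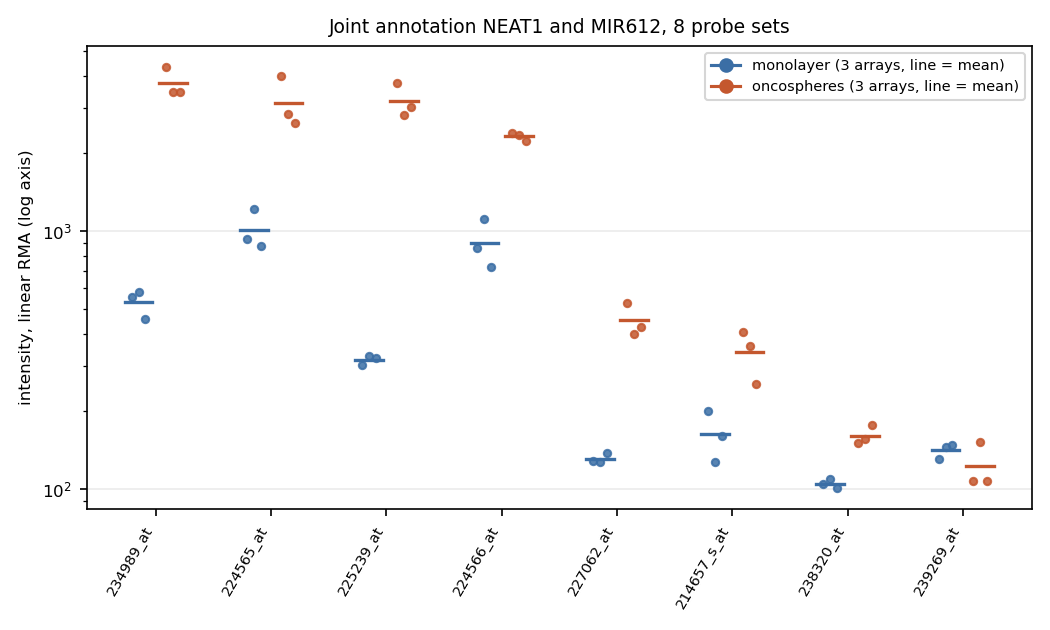
Linear RMA intensity on a log axis for each array over the 8 probe sets annotated jointly to NEAT1 and MIR612; points are the 3 cultures of each group and lines the group means. Of the 8, 7 show the oncospheres above the monolayer without overlap, from 1.53-fold to 10.02-fold, and on 239269_at the groups overlap.

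For the snoRNA host genes, the joint probe sets were bright, and those of SNHG1 and SNHG8 were called lower. The probe set of SNHG1 and 8 of its snoRNAs, 224610_at, read 3553, 3904 and 3211 in monolayer and 2601, 2622 and 1889 in oncospheres. All 3 oncosphere cultures were below the monolayer, and culture 3 was the lowest. It fell by 1.51-fold (log2 difference -0.60, SE 0.13, adjusted p = 0.01087), a call that was lost with background subtraction (adjusted p = 0.07024). The probe set of SNHG8 and SNORA24, 225220_at, read 3511, 3354 and 3395 against 2951, 2684 and 3080. The groups were apart, yet the difference was small (1.18-fold lower, log2 difference -0.24, SE 0.07, adjusted p = 0.02977). That call was lost in 9 of 17 alternatives, among them the omission of monolayer replicate 1, 2 or 3 or oncospheres replicate 1 or 2 (adjusted p between 0.05891 and 0.09409).

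SNHG12 and GAS5 were not called on any joint probe set (limma, with 0 and 0 at an unadjusted p below 0.05). SNHG12 shares 3 probe sets with SNORA16A, SNORA61 and SNORA44, and on the brightest, 223773_s_at, the values were 1005, 1214 and 1032 against 1162, 1186 and 1110. The groups overlapped on all 3, with log2 differences of 0.09, 0.15 and 0.20. GAS5 shares 4 probe sets with 8 snoRNAs, and 224741_x_at read 7574, 7618 and 7136 against 6943, 6455 and 7441 (log2 difference -0.10, 95% interval -0.26 to 0.06). On 224841_x_at the values were 7269, 6563 and 5166 against 6811, 6168 and 7248 (0.10). The other GAS5 probe sets gave 0.30 for 227517_s_at and -0.05 for 228238_at. The interval of 227517_s_at, -0.09 to 0.68, was the widest of the 4, and without monolayer replicate 2 it was called higher (0.50, adjusted p = 0.009073). SNHG12 223774_at was called higher with the replicate number as a block (adjusted p = 0.04532).

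Many snoRNA host genes and ribosomal protein genes begin with a C and a run of pyrimidines, the 5′ terminal oligopyrimidine tract, through which growth signals act on translation of their RNA. The starts of the 4 host genes are set side by side below, as 50 bases before and 50 bases from the first RefSeq start in the table, with the pyrimidines that follow the start without a break in capitals (RefSeq, GRCh38.p14). They lie at chr11:62855836-62855935 on the minus strand for SNHG1, chr4:118278712-118278811 on the plus strand for SNHG8, chr1:28581824-28581923 on the minus strand for SNHG12 and chr1:173868996-173869095 on the minus strand for GAS5.
SNHG1: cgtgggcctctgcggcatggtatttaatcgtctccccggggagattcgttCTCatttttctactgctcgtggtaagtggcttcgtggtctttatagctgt
SNHG8: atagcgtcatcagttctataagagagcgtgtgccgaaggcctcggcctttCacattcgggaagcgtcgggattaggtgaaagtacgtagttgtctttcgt
SNHG12: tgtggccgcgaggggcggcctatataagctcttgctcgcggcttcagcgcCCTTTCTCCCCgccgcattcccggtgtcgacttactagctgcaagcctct
GAS5: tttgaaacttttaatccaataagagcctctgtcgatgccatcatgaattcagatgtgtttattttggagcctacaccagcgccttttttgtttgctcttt

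At these annotated starts the unbroken run was 11 bases in SNHG12, 3 in SNHG1, 1 in SNHG8 and 0 in GAS5. A C followed by pyrimidines to a run of at least 5 stood at 4.07% of all annotated starts. The true start of a transcript can differ from the annotated one shown, which would change these lengths. A short or absent run at the annotated start therefore does not show that a gene lacks such a tract. SNHG8 also held ACGTG 187 bases before its start, and SNHG1 held TATAAA on the opposite strand, beginning 40 bases into the transcript.

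PVT1 shares 4 probe sets with MIR1204, a microRNA gene inside it, and 2 of these fell. On 1558290_a_at the values were 345, 487 and 419 in monolayer and 237, 257 and 248 in oncospheres. The oncospheres were lower and much less scattered. The difference was 1.67-fold (log2 difference -0.74, SE 0.12, adjusted p = 0.001816). The dimmer 1562153_a_at read 112, 127 and 109 against 92.8, 89.1 and 95.6 (log2 difference -0.32, adjusted p = 0.01148). The other 2, 216240_at and 222087_at, were not called (log2 differences -0.07 and -0.13), and 3 of the 4 lay below the array median, as did the single-symbol PVT1 probe set. H19, an imprinted RNA that is abundant in fetal tissue, shares both of its probe sets with MIR675. They read 86.9 to 107 over all arrays, below the median, and were not called (log2 differences 0.09 and -0.08).

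**Figure D4:**
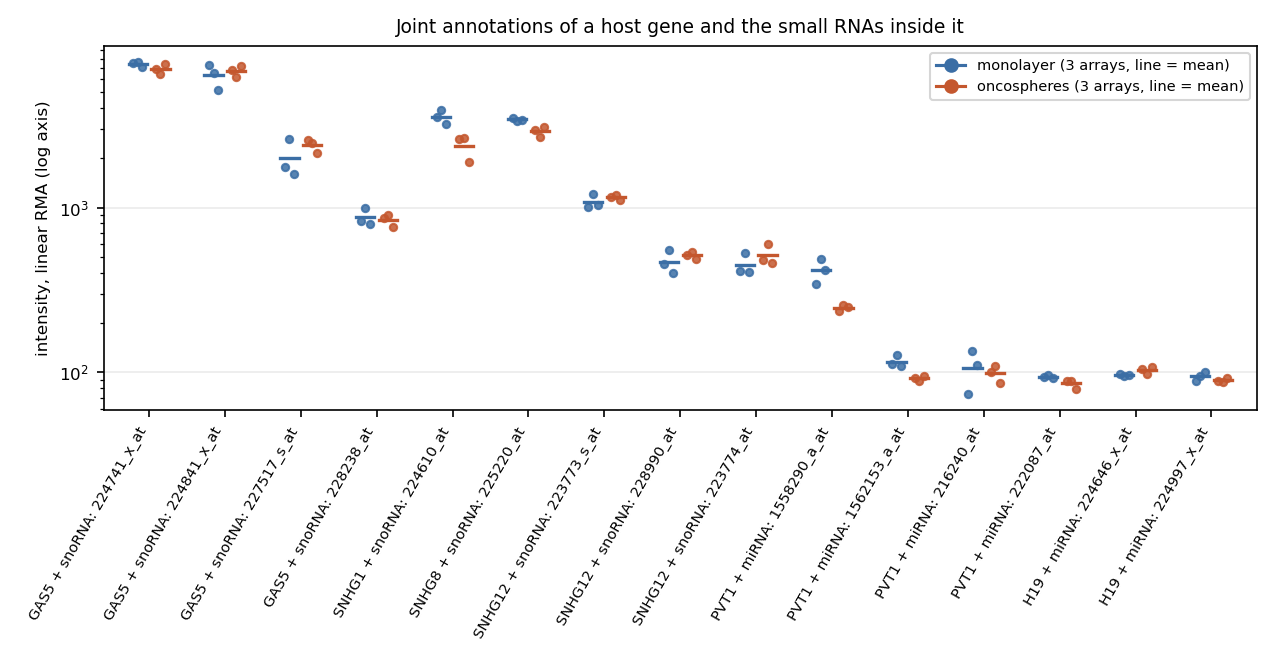
Linear RMA intensity on a log axis for each array over the 15 joint probe sets of GAS5, SNHG1, SNHG8 and SNHG12 with snoRNAs and of PVT1 and H19 with microRNAs; points are the 3 cultures of each group and lines the group means. The oncospheres lie below the monolayer for SNHG1 (1.51-fold), SNHG8 (1.18-fold) and the first PVT1 probe set (1.67-fold), and both H19 probe sets lie near 100.

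The genes on either side of the 10 did not move in 1 direction. FRMD8, a neighbour of NEAT1 and MALAT1 in RefSeq that takes part in the release of growth factors from the cell surface, read 584, 662 and 674 in monolayer and 1578, 1036 and 1539 in oncospheres, higher without overlap (2.13-fold, log2 difference 1.09, adjusted p = 0.001065). This was the only one of its 4 probe sets called, and their mean gave 0.47. LTBP3 of the same region, a binding protein of latent TGFβ, had a log2 difference of 0.90 by the probe set with the highest mean and -0.05 by the first without the _x_at or _s_at suffix. MYC, beside PVT1, fell from 3253 ± 37.3 to 1610 ± 16.4 (log2 difference -1.02, adjusted p = 7.533e-06). SLC3A2, the amino acid transporter subunit beside SNHG1, fell as well (2258 ± 70.4 to 1089 ± 10.1, log2 difference -1.05), and so did WDR74 on its other side (-0.42), a call lost in 6 of 19 alternatives. Of 11 measured neighbours 3 were called higher and 4 lower, against 17.3% and 17.5% over all genes. Among these, ZBTB37, which overlaps GAS5, was higher (log2 difference 0.03 to 0.64 over the alternatives). MRPL23, which overlaps H19, was lower (-0.41 to -0.02). Each of these 2 calls was lost in 2 of 19 alternatives. DLK1 beside MEG3, MORC2 beside TUG1, PRSS12 beside SNHG8 and TRNAU1AP, which overlaps SNHG12, were not called (log2 differences -0.02, 0.02, 0.15 and -0.05).

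Proteins of paraspeckles, the bodies that NEAT1 holds together, were mostly called lower. Of 17 measured, 9 were called lower and 2 higher, against 17.5% and 17.3% over all genes. Their median log2 difference was -0.22 against -0.02 over all genes. RBM14 fell from 842 ± 91.5 to 495 ± 39.0 (log2 difference -0.76), PSPC1 from 2013 ± 141 to 1260 ± 13.6 (-0.67) and TAF15 from 1156 ± 129 to 728 ± 26.1 (-0.66, and -0.08 without a call by the mean of all its probe sets). PSPC1 was called lower on 3 of its 5 probe sets and higher on 1. SS18L1, a subunit of chromatin remodelling complexes found in these bodies, rose from 493 ± 38.8 to 850 ± 69.7 (0.78). The core pair SFPQ and NONO went apart, with 4757 ± 83.8 against 3775 ± 104 for SFPQ (-0.33, adjusted p = 0.002171) and 7049 ± 24.2 against 7921 ± 175 for NONO (0.17, adjusted p = 0.04503). SFPQ was named after its values were seen, and so was NONO. The count of lower calls ranged from 3 to 10 over the alternatives.

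Other noncoding host genes of snoRNAs were lower more often than higher. Of 9 measured by single-symbol probe sets, 4 were called lower and 1 higher (median log2 difference -0.18). The shares over all genes were 17.5% lower and 17.3% higher. DANCR fell from 2694 ± 237 to 1555 ± 100.2 (log2 difference -0.79, adjusted p = 0.0002187), SNHG17 from 1181 ± 104 to 806 ± 29.6 (-0.55) and SNHG4 from 121 ± 12.1 to 86.3 ± 2.25 (-0.48, near the floor). EPB41L4A-AS1 rose from 1163 ± 28.3 to 1919 ± 231 (0.72, adjusted p = 0.0005766). Of 14 joint probe sets of such genes 5 were lower and 9 not called. The furthest was a probe set of SNHG7 with SNORA17A and SNORA17B (2317 ± 153 to 1038 ± 31.3, log2 difference -1.16). The other probe set of that annotation was not called (167 ± 18.2 to 156 ± 5.95, log2 difference -0.09, adjusted p = 0.4986, limma). Within arrays its change differed from that of the first by 1.07 on the log2 scale (adjusted p = 8.239e-05, limma). With a minimum of 1.5-fold the 4 lower genes became 1. Among 7 protein-coding hosts outside the ribosomal proteins 2 were higher (TAF1D 0.59, TPT1 0.37) and 2 lower (RCC1 -0.88, NCL -0.26, a call lost in 9 of 19 alternatives). Of 15 joint probe sets of such hosts 3 were higher and 6 lower, and those of TAF1D with the small RNAs inside it were not called (-0.08 and 0.20).

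Most proteins that bind and assemble snoRNAs were called lower. Of 16 measured, 14 were called lower and 0 higher, against 17.5% and 17.3% over all genes. Their median log2 difference was -0.57, and 8 to 14 were lower over the alternatives. Among them were RUVBL2 (3802 ± 68.6 to 2009 ± 98.4, log2 difference -0.92) and RUVBL1 (-0.77), the ATPases of the assembly chaperone, GAR1 (-0.78), a core protein of H/ACA snoRNPs, and NUFIP1 (-0.67), an assembly factor. All 5 joint probe sets of this list, which read NOP56 or DKC1 with the small RNAs inside them, were lower as well. They are not further evidence, since the same 5 are among the 6 lower joint probe sets of protein-coding hosts given above. Cytosolic ribosomal proteins, many of them hosts of snoRNAs, stayed near the median of all genes: of 53 measured, 6 were called lower and 1 higher (median log2 difference -0.04), and with cyclic loess normalization these counts were 0 and 5. RPL35, FAU and RPL14 were among the lower, each without a call under cyclic loess. RPL36A was the higher one, a call lost in 8 of 19 alternatives. Its mean over all arrays lay below the array median, so it may not measure its gene. Of 8 measured factors of nonsense-mediated decay, the pathway that degrades many spliced host RNAs, 4 were lower and 1 higher, with SMG5 at -0.43, EIF4A3 at -0.37, UPF1 at -0.30 and RBM8A at 0.31. RBM8A was called higher on 5 of its 6 probe sets and lower on 1.

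**Figure D5:**
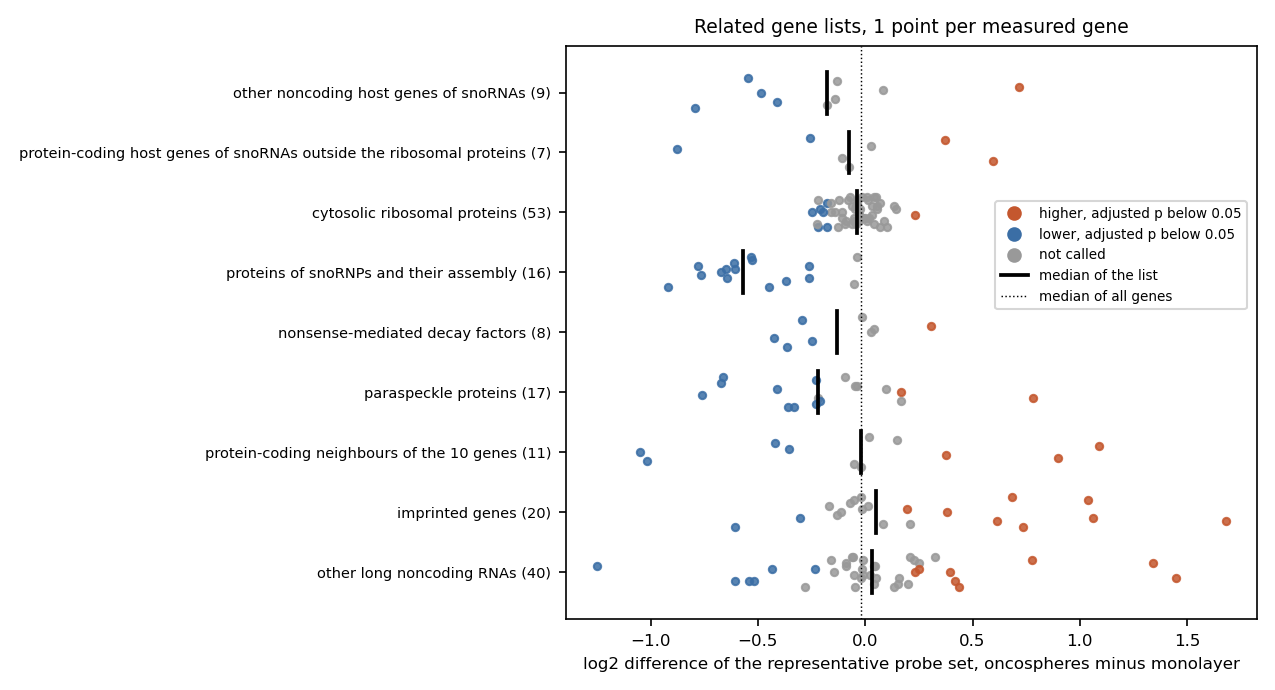
Log2 difference of oncospheres minus monolayer (x axis) for each measured gene of 9 related lists (rows, with the number measured), by the probe set with the highest mean; points are coloured by call, bars are list medians and the dotted line is the median of all genes (-0.02). The snoRNP proteins lie furthest to the left (median -0.57), and the ribosomal proteins lie around 0 (median -0.04).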

How the data were processed

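The authors hybridised RNA, 100 ng per array, after amplification and biotin labelling with a 3′ kit. According to the methods, they normalized the arrays by RMA. The affy package stands in the submitters' processing notes, with its version not given in the sources used here. All deposited values were intensities on a linear scale per probe set, and log2 was taken before all fits, although the test had been planned for log2 values. After 62 control probe sets were left out, 54613 were tested with limma 3.58.1 in R 4.3.3, as oncospheres minus monolayer with Benjamini-Hochberg adjustment over all of them. The annotation gave 41091 probe sets 1 symbol, 1801 several and 11721 none. A gene was represented by the single-symbol probe set with the highest mean. Joint probe sets, with a gene and small RNAs that RefSeq (GRCh38.p14) places inside it, were added after the annotation had been seen.

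The 10 genes and the 13 lists (the genes themselves, noncoding and protein-coding snoRNA hosts, ribosomal, snoRNP, decay and paraspeckle proteins, neighbours, imprinted genes, other long noncoding RNAs, and 3 marker lists) were chosen with earlier results of these data known. The rule for named genes took all probe sets of the 10 genes and the neighbours in full. Of each other list it took up to 4 called genes with the largest change, with the less frequent direction represented. SFPQ, NONO and the cell type markers at the floor were named outside this rule, after their values were seen. Alternative scalings were repeated quantile normalization, median centring, cyclic loess and subtraction of the 5th percentile with a floor of 16. Further alternatives dropped dim probe sets, dropped the _x_at and _s_at kinds, averaged the probe sets of each gene, or left out each array in turn. The fit was varied with array weights, with a trend in intensity under a robust prior and with the replicate number as a block. The call was varied with adjustment over representatives alone, an adjusted p below 0.01 and a minimum of 1.5-fold. The fits were tested on simulated arrays. P-values measure the spread between 3 cultures per group of 1 line. No probe positions were used, and RefSeq coordinates were used only to find nested and neighbouring genes and to credit printed windows.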

Additional observations from a re-analysis of the deposited data

How the results depend on the processing

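All 12 MALAT1 probe sets remained called higher in every alternative in which they were tested, and so did 6 of the 7 higher probe sets of NEAT1 and MIR612. The exception was 214657_s_at with background subtraction (log2 difference 1.51, adjusted p = 0.05561). Without _x_at and _s_at probe sets, the 13 higher member probe sets became 1 and the 2 higher genes 1, since most MALAT1 probe sets are of those kinds and were not tested. The higher genes were also 1 when the probe sets of each gene were averaged and with a minimum of 1.5-fold, TUG1 being lost in each case. The count of lower member probe sets, 0 in the main result, was 1 with median centring, without dim probe sets, with array quality weights and with the replicate number as a block, and it was 0 to 1 when single arrays were left out (1 without monolayer replicate 2). This probe set was TUG1 230635_at. The 4 lower joint probe sets became 2 with background subtraction, 1 at an adjusted p below 0.01 and 2 with a minimum of 1.5-fold, and numbered 3 to 4 when single arrays were left out. The only reversals were LTBP3 (-0.051) and LUM (-0.060) without _x_at and _s_at probe sets, where another probe set stood for the gene.

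Deviations of same-numbered arrays correlated at 0.07, 0.08 and 0.09, and the numbers were not taken as pairs in the main fit. On principal component 2 (6.89% of the variance) the replicates fell in the same order in both groups. The scores were 2.89, -5.71 and 5.74 in monolayer and 9.59, -25.7 and 13.2 in oncospheres. Whether same-numbered cultures shared a condition was not tested. With the replicate block, 14 member probe sets were higher and 1 lower, and 8 joint ones higher and 4 lower. Since the floor of the values is unknown, the size of a change is uncertain on dim probe sets such as those of MEG3, H19 and most of PVT1.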

Other observations

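Among other long noncoding RNAs, 8 of 40 measured were called higher and 6 lower, with a median log2 difference of 0.03 beside -0.02 over all genes. Over all genes 17.3% were higher and 17.5% lower, close to the shares in this list. MIR210HG, the host gene of the hypoxia-induced microRNA miR-210, rose from 189 ± 9.99 to 516 ± 62.0 (SD, n = 3 each, log2 difference 1.45, adjusted p = 2.279e-05, limma). FTX, a noncoding RNA of the X-inactivation centre, rose from 204 ± 15.6 to 519 ± 81.8 (1.34), and OIP5-AS1 from 1532 ± 49.6 to 2624 ± 31.0 (0.78). Of the 3 OIP5-AS1 probe sets 2 were called higher and 1 lower, and its log2 difference was 0.44 at the lowest over the alternatives. The probe set annotated to RPPH1, the RNA subunit of ribonuclease P, fell from 406 ± 20.6 to 171 ± 4.36 (-1.25, adjusted p = 6.216e-06). Since the labelling starts from poly(A) tails, whether it reads that RNA itself was not established here.

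Of 20 measured imprinted genes, 8 were called higher and 2 lower (17.3% and 17.5% over all genes), and 9 lay below the array median. GRB10, an adaptor that dampens insulin signalling, rose from 874 ± 166 to 2763 ± 113 (log2 difference 1.68, adjusted p = 5.501e-05). IGF2R, the receptor that clears IGF2, rose from 872 ± 90.4 to 1790 ± 150 (1.04). DIRAS3, a small GTPase, rose from 73.1 ± 2.58 to 153 ± 7.48 (1.06), starting below the array median. MEST fell from 458 ± 45.1 to 300.5 ± 22.5 (-0.61). Of the genes known to be expressed by MDA-MB-231, CAV2 (-1.22), EGFR (-0.78) and KRT18 (-0.64) were lower and NT5E (0.36) was higher. NT5E was called higher on 3 of its 4 probe sets and lower on 1. Over the 10 genes of that list 6 were lower and 1 higher. Of the 11 measured cell type markers 3 were called higher and 2 lower, with KDR (-0.50, below the array median) among the lower.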
